A study of Mus musculus with 6 samples.

Results

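The respiratory chain of the inner mitochondrial membrane is built mostly from proteins encoded in the nucleus. The genes described here are those whose symbols begin with Nduf (subunits named A, B, C, S or V), Sdh (A to D), Uqcr, Cox (numbered 4 to 8) or Atp5, leaving out symbols that carry the pseudogene ending -ps. This rule uses names only and no measured value. It found 85 of the 53762 gene symbols in the count files: 37 of complex I, 4 of complex II, 8 of complex III, 19 of complex IV and 17 of complex V.

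Complex I (NADH dehydrogenase) and complex II (succinate dehydrogenase) pass electrons to ubiquinone, complex III passes them on to cytochrome c, and complex IV (cytochrome c oxidase) hands them to oxygen. Complexes I, III and IV pump protons, and complex V, the ATP synthase, uses the returning protons to make ATP. Complex II is encoded wholly in the nucleus, whereas each of the other complexes also holds subunits encoded by mitochondrial DNA. Several complex IV subunits exist as paired isoforms, of which some belong to heart and skeletal muscle, lung or testis.

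RNA was sequenced from immortalized fibroblasts of mouse embryos (MEFs), a connective tissue cell much used to study gene loss, in 3 libraries of wild-type (WT) cells and 3 of PME-1 knockout (KO) cells. PME-1, the product of Ppme1, is an esterase that demethylates the catalytic subunit of PP2A, a protein phosphatase. Both groups were immortalized, were kept in high-glucose DMEM with serum and were harvested 24 hours after seeding, and no treatment was given. The labels do not say how the cells were immortalized, whether a group is 1 clone or whether its libraries came from separate cultures, so p-values measure the spread between these libraries, which may be technical. The genotype labels of KO 2 and KO 3 read PME-2 and PME-3 knockout while the titles read PME-1, and the groups follow the titles.

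Total counts per library ranged from 34450993 to 44116310. Ppme1, on chromosome 7, was at 78.5, 80.7 and 86.6 CPM (read counts scaled to library size) in WT 1 to 3 and at 18.2, 14.9 and 18.9 CPM in KO 1 to 3 (log2 fold change -2.24, SE 0.13, edgeR adjusted p = 0.000563). Fibroblast markers summed to 16176 to 22258 CPM in WT against 13063 to 15340 CPM in KO. The 10 listed had a median log2 fold change of -0.73, and Col1a1, Pdgfrb and S100a4 fell. Thy1 was at 2.31 ± 1.22 CPM in WT against 6.52 ± 2.52 CPM in KO without overlap (edgeR adjusted p = 0.134, called by DESeq2), and Fn1 had a log2 fold change of 0.04. Epithelial markers summed to 2.44 to 2.89 CPM in WT against 61.2 to 117.6 CPM in KO, through the keratins Krt8 and Krt18, while Krt5 and Krt14 had 0 counts. Of the 7 listed, 5 were tested, with a median log2 fold change of 3.13. Krt8 and Krt18 were called higher, and Epcam, Cdh1 and Cldn4 were not called. Neural markers summed to 12.9 to 16.9 CPM in WT against 22.6 to 24.1 CPM in KO: Sox2 rose from 2.03 ± 0.237 to 14.1 ± 1.87 CPM, Tubb3 was at 10.6 to 15.1 CPM in WT against 7.37 to 10.35 CPM in KO, and Sox10 and Rbfox3 had 0 counts. Endothelial and blood markers stayed at or under 4.94 CPM in sum in every library. Striated muscle markers stayed at or under 2.79 CPM in sum in every library, with Myod1, Myog, Ckm and Actn2 at 0 counts. Xist held 16003 to 18859 counts in WT and 4 to 12 in KO, and the Y-linked Ddx3y held 0 in WT and 1988 to 3061 in KO, so effects of sex and of genotype cannot be told apart. WT 1 and KO 1 stood apart from the other libraries of their groups: in 32.7% of all tested genes WT 1 was the lowest WT library and KO 1 the highest KO library, and in 29.6% the reverse held. What part cells bearing keratins or Sox2, sex or these libraries have in the results below was not tested.

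Transcripts of the respiratory chain took about the same share of RNA in both groups. The 85 genes made up 0.955%, 1.03% and 0.971% of all counts in WT 1 to 3 and 1.11%, 0.956% and 0.988% in KO 1 to 3, so the groups overlapped. In bulk RNA, a change in the share of cells of a type and a change in RNA per cell cannot be told apart. Of the 85 genes, 79 passed the filter on low counts and were tested. Ndufs5 of complex I, Sdhd of complex II and Atp5e of complex V rose in KO, and Cox5a of complex IV fell. These 3 rises stand against a background of 3.55% of all 15223 genes tested, and the 1 fall against 3.86%; both directions together are 7.4% of all genes. At an unadjusted p under 0.05 there were 18 of the 79 genes, beside 22.2% of all genes.

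The fitted changes of the other genes were small. The median log2 fold change (KO against WT) was 0.02 over the 79 genes and 0.01 over all genes, and the median size of the change was 0.16 against 0.28. These sizes compare genes at unlike levels: 77 of the 79 genes had a mean of at least 5 CPM, against 10768 genes in all, where 15223 were tested. In 73 of the 79 genes the change was within 0.5 on the log2 scale, a count without a share over all genes to set beside it. All 3 KO libraries lay above all 3 WT libraries in 15 genes, where 14.6% of all genes did so, and below them in 10 genes, where 15.4% of all genes did so. DESeq2, a second count model, called 8 of these genes higher (7.85% of all genes) and 6 lower (7.96%), including the 4 named above.

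**Figure D1:**
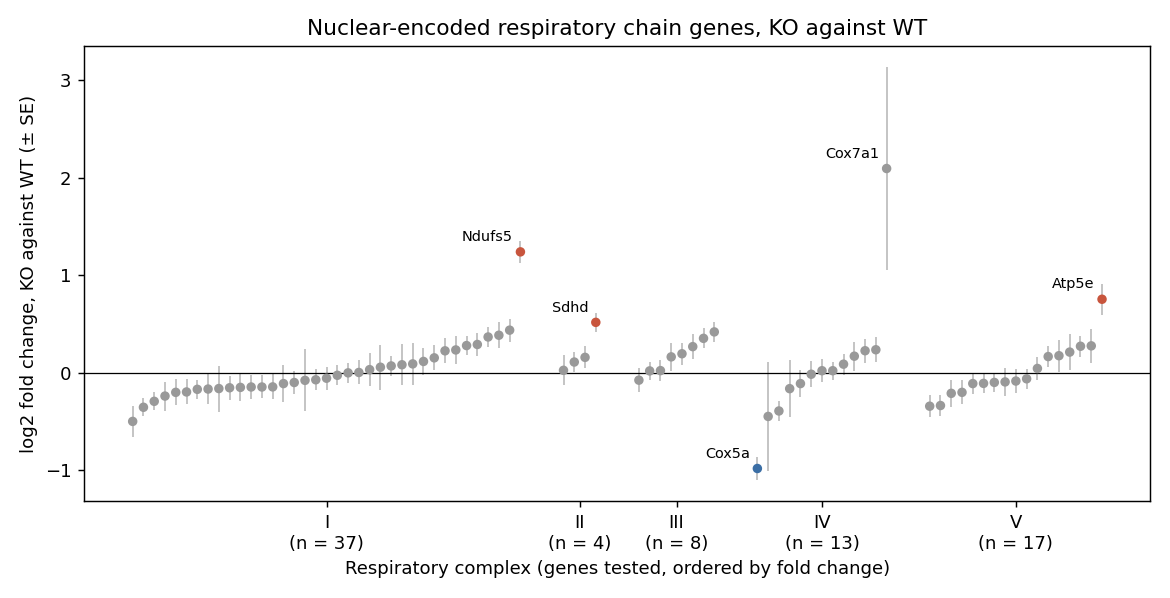
Fitted log2 fold change of each tested gene, KO against WT, with its standard error, ordered within complexes I to V; red and blue points passed the threshold as higher and lower in KO. Most points lie within 0.5 of 0, and Ndufs5, Sdhd, Atp5e and Cox5a are the 4 that passed, while Cox7a1 carries a wide error.

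Leaving out single libraries changed these counts. Without WT 2, WT 3, KO 2 or KO 3, the rises among respiratory chain genes went from 3 to 1, and over all genes from 540 to between 170 and 195, with falls over all genes going from 587 to between 162 and 198. Without KO 1 a second gene, Cox7a2, was called lower. Without both WT 1 and KO 1, 12 respiratory chain genes were called higher and 23 lower, in a comparison where 23.3% of all genes were called higher and 24.6% lower.

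Complex I is the largest of the 5 sets, and 1 of its 37 genes rose while none fell. Fitted changes were above 0 in 16 genes and below 0 in 21, with a median of -0.06. The summed level was 2329, 2516 and 2361 CPM in WT 1 to 3 and 2703, 2261 and 2350 CPM in KO 1 to 3, or 2402 ± 99.7 against 2438 ± 234 CPM (SD, n = 3 each). KO 1 was the highest of all 6 libraries and KO 2 the lowest, so the complex as a whole did not separate the groups.

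Ndufs5 encodes a small accessory subunit of the membrane arm of complex I. The gene (ENSMUSG00000028648.13) spans 123712710 to 123718202 of chromosome 4 (minus strand; GENCODE M21, GRCm38). It held 20.97, 23.5 and 21.7 CPM in WT 1 to 3 and 54.8, 49.2 and 52.2 CPM in KO 1 to 3. Every KO library lay above every WT library, and the change was 1.24 on the log2 scale (SE 0.11, edgeR adjusted p = 0.002). It passed the threshold without any single library, with adjusted p-values up to 0.0207.

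Ndufs5 has a processed pseudogene, an intronless copy of its mRNA, whose reads moved the other way. Ndufs5-ps lies on chromosome 16 from 42955631 to 42955949 and matches 316 of the 318 coding bases of Ndufs5. The copies differ by T81C and A105G, counted from the A of the Ndufs5 start codon, with the base of the gene first. The stretch that holds both differences, positions 81 to 170 of the GENCODE transcript sequences, is shown because these bases, in capitals, are all that separates the coding sequences.
Ndufs5: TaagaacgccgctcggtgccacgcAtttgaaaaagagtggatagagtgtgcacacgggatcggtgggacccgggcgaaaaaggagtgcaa
Ndufs5-ps: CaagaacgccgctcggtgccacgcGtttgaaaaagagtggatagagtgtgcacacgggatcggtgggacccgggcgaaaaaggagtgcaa

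The pseudogene was credited with 598, 935 and 714 counts in WT 1 to 3 and with 33, 31 and 36 counts in KO 1 to 3. That is 44.2%, 47.9% and 43.0% of the reads of gene and pseudogene together in WT, and 1.53%, 1.46% and 1.99% in KO. Its own log2 fold change was -4.37 (SE 0.25, edgeR adjusted p = 0.000472). Gene and copy together stood at 37.6, 45.1 and 38.1 CPM in WT against 55.7, 49.9 and 53.3 CPM in KO. The groups still did not overlap, but the change shrank to 0.40 (SE 0.12) and was no longer called (edgeR adjusted p = 0.105). How the counting divided reads between such close copies is not given in the sources used here, so the rise of Ndufs5 is uncertain in size and in its call.

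**Figure D2:**
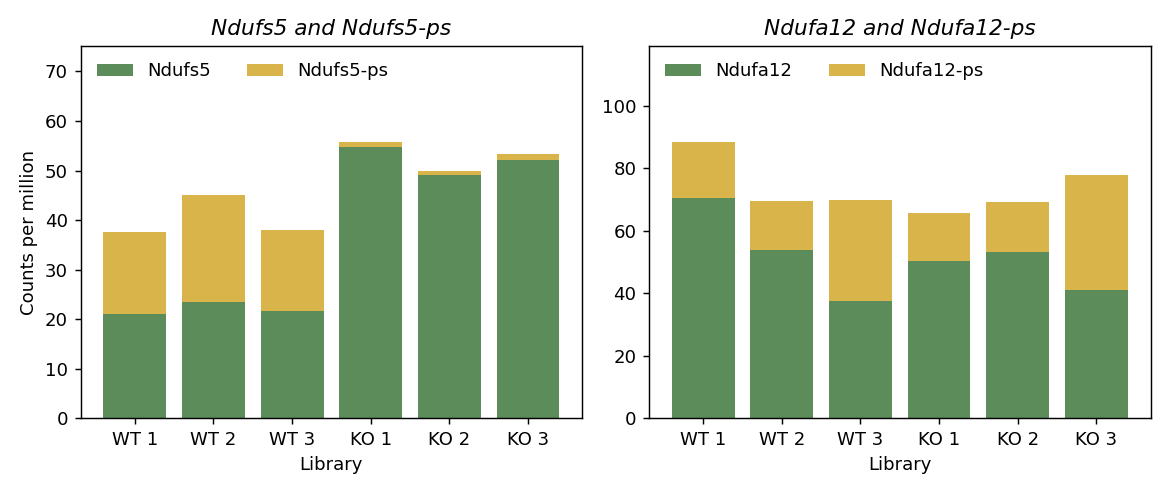
Counts scaled to library size (CPM) assigned to a gene (green) and to its processed pseudogene (yellow), stacked, in each of the 6 libraries, for Ndufs5 and Ndufa12. Ndufs5-ps holds 43.0% to 47.9% of its pair in WT and under 2% in KO; Ndufa12-ps holds 46.2% and 47.3% in WT 3 and KO 3 and 20.1% to 23.4% in the other 4 libraries.

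Ndufa12, an accessory subunit next to the matrix arm of complex I, was lower and its pseudogene higher in the libraries numbered 3 of both groups. Its pseudogene on chromosome 5 (130188395 to 130188796) matches 397 of 399 aligned coding bases, and the copies differ by A135G and T414C on the same numbering in Ndufa12. The first 90 bases from position 135 hold 1 of these differences, again in capitals.
Ndufa12: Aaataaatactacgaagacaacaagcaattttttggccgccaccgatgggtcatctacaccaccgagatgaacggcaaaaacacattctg
Ndufa12-ps: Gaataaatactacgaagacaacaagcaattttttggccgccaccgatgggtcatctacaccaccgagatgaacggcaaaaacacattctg

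Ndufa12 itself was at 70.5, 53.9 and 37.5 CPM in WT 1 to 3 and at 50.3, 53.3 and 41.0 CPM in KO 1 to 3, lowest in the libraries numbered 3 of both groups. Ndufa12-ps took 46.2% of the pair in WT 3 and 47.3% in KO 3, and 20.1% to 23.4% in the other 4 libraries. The pair together was at 75.8 ± 10.7 CPM in WT against 70.9 ± 6.22 CPM in KO. Its log2 fold change was -0.10, against -0.16 for the gene alone, and neither was called.

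Matched by sequence, 143 pseudogenes belonged to 53 of the 79 tested genes. In 38 of the 53 families the gene itself held at least 98% of the reads, and in 8 it held less than 90%. Besides Ndufs5 and Ndufa12 these were Atp5g1 (67.9%), Atp5g2 (73.4%), Atp5l (80.5%), Atp5h (87.9%), Ndufb4 (88.9%) and Uqcrb (89.7%). Ndufs5 was the only family in which adding the pseudogene counts moved the log2 fold change by over 0.1. The counts and fold changes of these 8 genes are the less certain ones among the set.

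Other complex I genes spread on both sides of 0. Ndufa1, an X-linked accessory subunit, had the lowest fitted value: 23.1, 31.0 and 28.5 CPM in WT against 21.4, 18.02 and 19.0 CPM in KO (log2 fold change -0.50, SE 0.16, edgeR adjusted p = 0.113). Its groups did not overlap, and it did not pass in edgeR but was called lower by DESeq2 (adjusted p = 0.0425). The other X-linked members were close to 0, at 0.03 for Ndufb11 of complex I and 0.02 for Cox7b of complex IV. Ndufb7, with adjusted p = 0.0711 and a change of -0.36, and Ndufb6, with adjusted p = 0.0797 and a change of 0.44, were near the threshold on either side, and DESeq2 called both.

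Scaled to transcript length, levels within complex I were uneven. Ndufa4 was highest at 249 ± 21.9 CPM per kb in WT and 217 ± 26.4 in KO, and Ndufb2 was lowest at 13.9 ± 1.38 and 12.6 ± 0.937. The rank of Ndufb2 rests on its transcript length of 2413 bases. Before scaling to length it was at 33.6 CPM in WT, above Ndufa1 at 27.5 CPM. Ndufa4 carries a complex I name but is known as a subunit of complex IV. Counting it there moved the median log2 fold change of complex I from -0.06 to -0.04 and that of complex IV from 0.02 to 0.002, with no change in the counts of called genes.

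Complex II was higher in KO as a sum, and 1 of its 4 genes rose. The sum was 492.5, 520.9 and 512.5 CPM in WT 1 to 3 and 575.1, 580.8 and 557.3 CPM in KO 1 to 3, a ratio of 1.12 between the means (509 ± 14.6 and 571 ± 12.3 CPM). The groups of 3 did not overlap. All 4 fitted changes were above 0, with a median of 0.13.

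Sdhd, which encodes a membrane anchor of complex II that helps bind ubiquinone, showed the largest of these changes. The gene (ENSMUSG00000000171.5) spans 50596357 to 50603812 of chromosome 9 (minus strand). It was at 76.4, 74.4 and 70.5 CPM in WT 1 to 3 and at 101.6, 111.9 and 102.7 CPM in KO 1 to 3. The groups were well apart, with a log2 fold change of 0.52 (SE 0.10, edgeR adjusted p = 0.0247). The call was lost without WT 2 (adjusted p = 0.114), WT 3 (0.131), KO 2 (0.105) or KO 3 (0.0948), while the change itself stayed between 0.48 and 0.55.

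Timm8b, which encodes a small chaperone of mitochondrial protein import, lies on the opposite strand and starts 98 bases beyond the end of Sdhd that holds its start. It rose too, from 20.9, 22.4 and 22.2 CPM in WT to 38.5, 31.1 and 34.1 CPM in KO (log2 fold change 0.67, SE 0.13, edgeR adjusted p = 0.0264). Of 16 other genes tested within 1 Mb of Sdhd, Timm8b and Cryab rose and none fell, beside 3.55% and 3.86% of all genes. The bases upstream of the RefSeq start of Sdhd, as far as the first exon of Timm8b, are shown because both genes start beside them and rose; chr9:50603850-50603909, minus strand, GRCm38.p6, with a match to the ETS motif in capitals.
Sdhd upstream: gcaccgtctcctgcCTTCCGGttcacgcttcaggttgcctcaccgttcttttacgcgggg

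The other 3 complex II genes overlapped between groups. The flavoprotein subunit Sdha was at 246 ± 7.45 CPM in WT against 265 ± 14.4 CPM in KO, and the iron-sulfur subunit Sdhb at 84.6 ± 5.71 and 94.3 ± 9.25 CPM. The second anchor, Sdhc, was at 86.0, 117.4 and 109.4 CPM in WT and at 120.5, 99.6 and 97.95 CPM in KO, with a log2 fold change of 0.02. Per kb of transcript, Sdha was highest (84.8 ± 2.57 in WT) and Sdhc lowest (32.9 ± 5.14 in WT).

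Complex III showed the largest ratio between summed levels, although no single gene of the 8 passed. The sum was 705.8, 700.1 and 673.6 CPM in WT 1 to 3 and 835.8, 774.3 and 798.4 CPM in KO 1 to 3, or 693 ± 17.2 against 803 ± 31.0 CPM, a ratio of 1.16. As in complex II, every KO library lay above every WT library. Fitted changes were above 0 in 7 of the 8 genes, with a median of 0.18, and 4 genes had no overlap between groups, all with KO higher, a state found in 14.6% of all tested genes. These sums describe genes picked by name and carry no test.

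**Figure D3:**
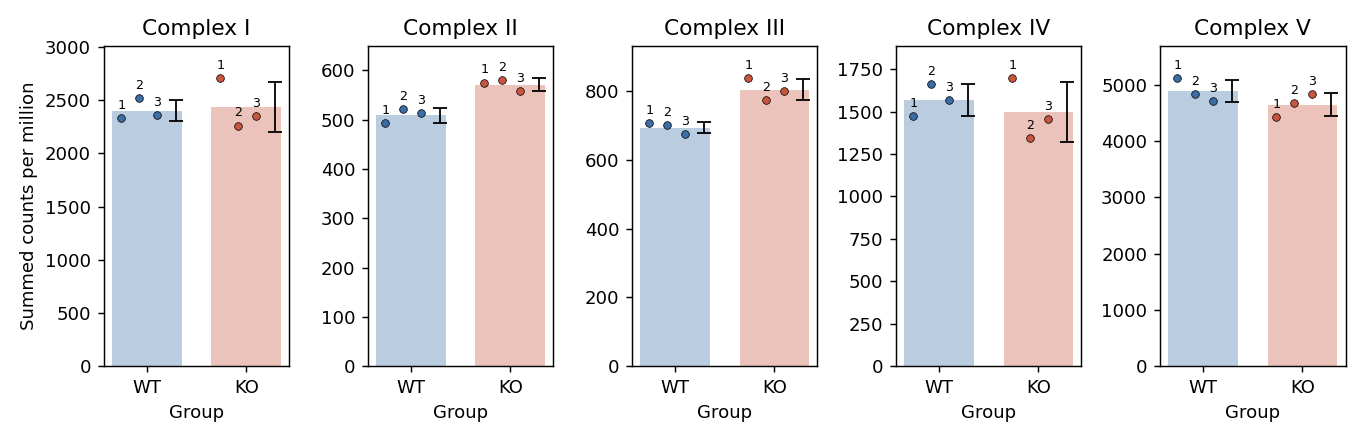
Summed CPM of the genes of each complex in each library (points, numbered by library), with the group mean (bar) and SD (error bar, n = 3). WT and KO points separate in complexes II and III and overlap in complexes I, IV and V.

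Uqcrc1, a core subunit of complex III, came closest. It was at 174.5, 163.6 and 149.1 CPM in WT 1 to 3 and at 216.3, 213.4 and 221.4 CPM in KO 1 to 3, with no overlap (log2 fold change 0.42, SE 0.10, edgeR adjusted p = 0.0612). It was called by DESeq2 (adjusted p = 0.00139), with upper-quartile factors (0.035), with library sizes alone (0.0343) and when genes under a mean of 5 CPM were dropped (0.0446). Uqcrfs1, the Rieske iron-sulfur protein that takes electrons from ubiquinol, was at 91.9 ± 6.42 CPM in WT against 117.3 ± 5.57 CPM in KO (0.35, edgeR adjusted p = 0.0927). Uqcrfs1 was also called by DESeq2 (adjusted p = 0.012), with upper-quartile factors and with library sizes alone. The remaining 2 genes without overlap, Uqcr10 and Uqcrq, had changes of 0.27 and 0.19.

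Uqcr11 was the only complex III gene with a fitted change below 0, at 66.4 ± 3.46 CPM in WT against 63.0 ± 7.83 CPM in KO (-0.08). Per kb, Uqcrh was highest in the complex at 185 ± 13.6 in WT and 207 ± 33.4 in KO. Uqcrc2, the second core subunit, was lowest at 55.7 ± 1.47 and 56.3 ± 3.23 and did not follow Uqcrc1, with a log2 fold change of 0.02.

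Complex IV held the single fall, and its other ubiquitous subunits overlapped between groups or did not pass. Of its 19 genes, 13 were tested, 1 fell and none rose, with a median change of 0.02. The sum was 1471, 1660 and 1569 CPM in WT 1 to 3 and 1695, 1347 and 1454 CPM in KO 1 to 3. KO 1 and WT 2 were the high libraries, and the means of 1566 ± 94.6 and 1499 ± 178 CPM differed by less than the SD within KO.

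Cox5a, a nuclear-encoded subunit on the matrix side of cytochrome c oxidase, fell in KO. The gene (ENSMUSG00000000088.7) spans 57521274 to 57532426 of chromosome 9 (plus strand). It was at 253.7, 207.7 and 204.6 CPM in WT 1 to 3 and at 107.8, 111.0 and 118.2 CPM in KO 1 to 3. The highest KO library was far below the lowest WT library (log2 fold change -0.98, SE 0.12, edgeR adjusted p = 0.00614). The call held without any single library, with changes from -1.04 to -0.87 and adjusted p-values up to 0.0426. Its partner Cox5b, on chromosome 1, was at 89.2 ± 5.88 CPM in WT against 94.7 ± 7.03 CPM in KO.

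Genes beyond the end of Cox5a fell as well. Of 34 other genes tested within 1 Mb of its start, 12 fell and 2 rose, and their median log2 fold change was -0.66. Among the 17 that start after Cox5a 11 fell and none rose (median -0.89), and among the 17 that start before it Scamp5 alone fell while Cspg4 and Imp3 rose (median 0.30). The falls included Scamp5 (-1.50), Fam219b (-0.94), Mpi (-0.99), Csk (-1.20) and Sema7a (-2.19). On chromosome 9 as a whole 11.3% of 833 tested genes fell and 5.5% rose. Around Atp5e, Ndufs5 and Sdhd no neighbour within 1 Mb fell, and 1 of 21, 2 of 19 and 2 of 16 rose. The median log2 fold changes of these neighbours were -0.05, 0.30 and 0.45, against 0.01 over all genes. Over all tested genes 3.86% fell and 3.55% rose, so the lack of falls in windows this small is near that share. The part of the neighbourhood in the fall of Cox5a, or in the rises of Ndufs5 and Sdhd, was not tested.

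The other chromosome 9 members did not all follow Cox5a. Atp5l (starting at 44912557) had a log2 fold change of 0.17, Sdhd rose as given above, Cox7a2 (at 79755361) had -0.39 and Uqcrc1 (at 108936633) had 0.42. Cox7a2 was at 110 ± 5.74 CPM in WT against 83.7 ± 4.91 CPM in KO without overlap (edgeR adjusted p = 0.0645), and DESeq2 called it lower.

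**Figure D4:**
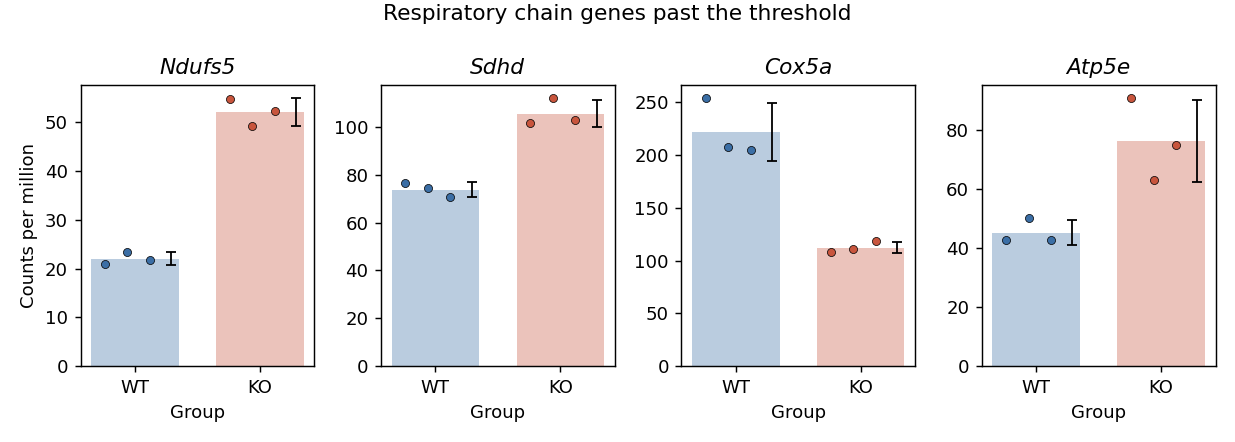
CPM of Ndufs5, Sdhd, Cox5a and Atp5e in the 3 WT (blue) and 3 KO (red) libraries as points, with the group mean (bar) and SD (error bar). The groups do not overlap in any of the 4 genes, and Atp5e has the widest spread in KO, from 63.1 to 90.6.

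Complex IV isoforms known from other tissues were at or near 0 counts in both groups. Cox4i2 (lung), Cox6a2 and Cox8b (heart and skeletal muscle), Cox7b2 and Cox8c (testis) had 0 counts in every library, which allows up to 3 counts, or 0.0689 to 0.0881 CPM per library. Cox6b2, a testis isoform, held 0, 0 and 4 counts in WT 1 to 3 and 30, 7 and 8 in KO 1 to 3. These are the 6 genes that were not tested. Their ubiquitous partners Cox4i1, Cox6a1, Cox7b and Cox8a took 100% of the reads of their sets in every library, and Cox6b1 took 99.35% in KO 1 and more in every other library.

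Cox7a1, the isoform of heart and skeletal muscle, held 6, 0 and 14 counts in WT 1 to 3 and 42, 20 and 19 in KO 1 to 3. The groups did not overlap, yet at these counts the fitted change of 2.09 carried an SE of 1.05 and an edgeR adjusted p of 0.302. It took 0.0767% of the reads of the Cox7a set in WT and 0.374% in KO, which leaves nearly all to Cox7a2 and Cox7a2l. Cox6c2, which the annotation lists as a processed pseudogene, held 9 to 36 counts.

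Cox4i1 was the most abundant complex IV transcript per kb, at 388 ± 41.4 in WT and 436 ± 65.3 in KO. Its levels were 257.3, 314.9 and 306.9 CPM in WT 1 to 3 and 384.1, 288.5 and 315.5 CPM in KO 1 to 3, with WT 1 lowest and KO 1 highest of all. WT 1 was the lowest WT library and KO 1 the highest KO library in 10 of the 13 tested complex IV genes, among them Cox8a (0.23) and Cox6a1 (0.02). Without WT 1 and KO 1 the log2 fold change of Cox4i1 went from 0.17 to -0.04.

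Cox7a2l, known as a factor of respiratory supercomplexes that bears a complex IV name, differed between libraries of the same group. It was at 78.9, 129.7 and 119.7 CPM in WT 1 to 3 and at 137.4, 72.3 and 83.3 CPM in KO 1 to 3. Its group means, 109 ± 26.9 and 97.7 ± 34.8 CPM, did not differ beyond the spread. Within the Cox7a set its share of reads ran from 43.2% in WT 1 to 60.5% in KO 1.

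Complex V had the highest levels and 1 rise among its 17 genes. The sum was 5114, 4843 and 4716 CPM in WT 1 to 3 and 4425, 4680 and 4841 CPM in KO 1 to 3, or 4891 ± 203 against 4648 ± 210 CPM, with overlap. In this sum KO 1 was lowest and WT 1 highest, whereas KO 1 was the highest library in the sums of complexes I and IV. Gene by gene, WT 1 was the lowest WT library and KO 1 the highest KO library in 8 of the 17, and the reverse held in 5. Atp5b, the catalytic beta subunit, led all respiratory chain genes with 921 ± 99.8 CPM per kb in WT and 863 ± 94.7 in KO. Atp5b makes up much of the complex V sum and so largely sets its order. It was at 1986, 1656 and 1654 CPM in WT 1 to 3 and 1444, 1742 and 1772 CPM in KO 1 to 3.

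Atp5e, which encodes the epsilon subunit of the central stalk, rose in KO. The gene (ENSMUSG00000016252.7) spans 174461072 to 174464105 of chromosome 2 (minus strand). It was at 42.7, 50.3 and 42.7 CPM in WT 1 to 3 and at 90.6, 63.1 and 74.9 CPM in KO 1 to 3. The groups did not overlap, with KO 1 the highest library (log2 fold change 0.75, SE 0.16, edgeR adjusted p = 0.0372). It is the least firm of the 4 calls: leaving out any single library, WT 1, WT 2, WT 3, KO 1, KO 2 or KO 3, took the adjusted p to between 0.0503 and 0.161, and library sizes without scaling factors took it to 0.0538.

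Atp5o, which joins the stalk to the catalytic head, had the lowest fitted change in complex V, at 218 ± 19.0 CPM in WT against 171 ± 12.3 CPM in KO without overlap (-0.34, edgeR adjusted p = 0.135). The 3 genes for the identical mature subunit c of the rotor gave different shares of their summed reads in the groups. Atp5g3 gave 63.2%, 62.7% and 63.4% of their reads in WT 1 to 3 and 55.0%, 59.6% and 58.0% in KO 1 to 3, lower in every KO library. Atp5g2 gave 26.7% ± 1.33 in WT and 30.7% ± 3.38 in KO, and Atp5g1 10.2% ± 1.40 and 11.7% ± 1.27. These shares are not scaled to length, Atp5g1 and Atp5g2 share reads with pseudogenes as given above, and none of the 3 genes was called. Per kb, Atp5g1 was the lowest of complex V at 18.5 ± 3.36 in WT and 22.4 ± 2.87 in KO. That rank rests on a transcript length of 2676 bases, against 586 for Atp5g2 and 718 for Atp5g3. Before scaling to length Atp5g1 was at 49.45 CPM in WT, above Atp5k at 37.7 CPM.

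One order of the libraries recurred among the genes, with the largest share in complex IV. In 39 of the 79 genes WT 1 was the lowest WT library and KO 1 the highest KO library, beside 32.7% of all genes; in 11 genes the reverse held, beside 29.6%. The first order was found in 18 of 37 tested genes of complex I, 1 of 4 of complex II and 2 of 8 of complex III. It was also found in 10 of 13 of complex IV and 8 of 17 of complex V. The reverse held in 2, 1, 2, 1 and 5 genes of complexes I to V. The median deviation of the 79 genes from their mean over libraries was 0.14 on the log2 scale in KO 1 and -0.09 in KO 2, against -0.03, 0.05 and -0.03 in WT 1 to 3 and -0.03 in KO 3.

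The order is plain in several accessory subunits. Ndufv3, an accessory subunit of the matrix arm of complex I, was at 29.2, 49.8 and 48.8 CPM in WT 1 to 3 and at 58.3, 29.2 and 33.5 CPM in KO 1 to 3. Ndufa13, also known as a regulator of cell death, was at 69.5, 91.6 and 83.1 CPM in WT and at 115.8, 67.9 and 70.2 CPM in KO. In both genes WT 1 sat with KO 2 and KO 3, and KO 1 sat above WT 2 and WT 3. Both genes were chosen after their values were seen. Without WT 1 and KO 1, Ndufa13 went from 0.06 to -0.34 on the log2 scale and was called lower, as were 24.6% of all genes.

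**Figure D5:**
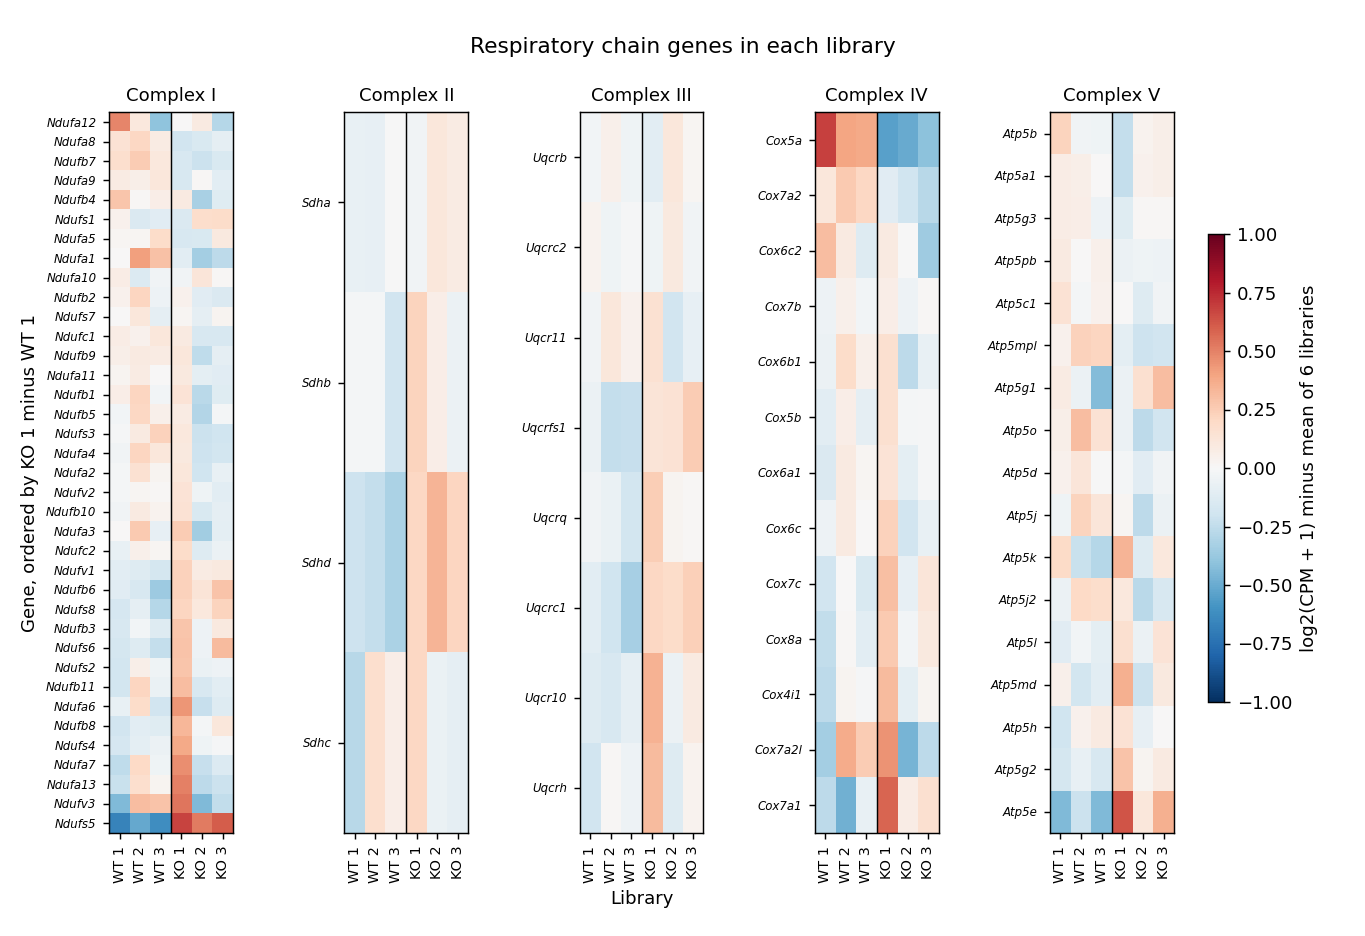
Level of each tested gene in each library as log2(CPM + 1) minus its mean over the 6 libraries, by complex and ordered from the lowest to the highest value of KO 1 minus WT 1 (colour scale from -1 to 1). KO 1 is above and WT 1 below the mean in most rows of complex IV, while Cox5a and Ndufs5 separate WT from KO in all libraries.

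Upstream sequence was compared over the genes with a RefSeq window running from 250 bases before to 50 bases after the start, which 69 of the 85 have. NRF1, a regulator of respiratory genes, has a motif of GCGCA, any base and GCGC, found on either strand in 17 of the 69 (24.6%) against 5.2% of the 27025 genes with a window. The ETS motif CCGGAAG was in 24.6% against 9.9%, and the YY1 motif AAGATGGC in 14.5% against 3.2%. The general promoter motifs GGGCGG (SP1) and CCAAT (NFY) were about as common as elsewhere, at 40.6% against 38.2% and 43.5% against 41.1%. These motifs do not contain each other. A match describes letters in a window and not binding, and no binding was measured.

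The 3 further genes past the threshold are shown with the bases just before their RefSeq starts (GRCm38.p6), since they differ in which motifs they hold, in capitals. Over its whole window Sdhd, printed above only in part, held NRF1, ETS and SP1 matches. The stretches are chr4:123718187-123718306 on the minus strand for Ndufs5, with 1 NRF1 match, chr9:57521112-57521231 on the plus strand for Cox5a, with 1 SP1 match, and chr2:174464102-174464221 on the minus strand for Atp5e, with 1 ETS, 1 SP1 and 2 NFY matches.
Ndufs5 upstream: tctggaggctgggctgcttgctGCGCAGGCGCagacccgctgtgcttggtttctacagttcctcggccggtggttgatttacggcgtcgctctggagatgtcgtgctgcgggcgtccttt
Cox5a upstream: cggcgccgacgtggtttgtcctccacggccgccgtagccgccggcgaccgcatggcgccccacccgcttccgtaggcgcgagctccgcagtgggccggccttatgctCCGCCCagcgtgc
Atp5e upstream: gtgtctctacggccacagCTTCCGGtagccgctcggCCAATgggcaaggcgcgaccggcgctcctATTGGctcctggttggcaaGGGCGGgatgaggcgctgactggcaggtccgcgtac

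Genes that assemble or supply the chain were listed separately. Of 20 tested assembly factors of complex IV, 2 rose and none fell, beside 3.55% and 3.86% of all genes. Coa3, which stabilises newly made COX1, was at 15.8, 17.7 and 16.9 CPM in WT 1 to 3 and at 30.0, 29.8 and 26.3 CPM in KO 1 to 3 (log2 fold change 0.77, SE 0.13, edgeR adjusted p = 0.0157). Cox15, which makes the haem A of complex IV, was at 31.2, 36.7 and 33.3 CPM in WT and at 46.7, 47.6 and 49.5 CPM in KO (0.51, SE 0.11, edgeR adjusted p = 0.0411). All KO libraries lay above all WT libraries in both genes. The Coa3 call was lost without WT 2 (0.0691), WT 3 (0.0821), KO 2 (0.082) or KO 3 (0.0544), and that of Cox15 without any single library (0.0534 to 0.169).

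No gene of the other 9 lists passed in either direction, where 3.55% of all genes rose and 3.86% fell. These held 15 tested assembly factors of complex I, with a median log2 fold change of 0.26, 4 of complex II (0.12), 6 of complex III (0.05) and 3 of complex V (0.22). They also held 9 subunits and electron carriers outside the naming rule (median -0.003), 13 genes of coenzyme Q synthesis (0.13), 13 regulators of respiratory genes (-0.11) and 14 genes of the TCA cycle (-0.04). DESeq2 called genes of these lists in both directions, where it called 7.85% of all genes higher and 7.96% lower. Among them, Atpaf1 (log2 fold change 0.49, DESeq2 adjusted p = 0.000905) and Etfa (0.43, DESeq2 adjusted p = 0.0435) were higher. Tmem126b (-0.53, DESeq2 adjusted p = 0.0132) was lower. The regulator Ppargc1a had 9 or 10 counts in each WT library and 9 to 16 in KO. Its relative Ppargc1b, which also coactivates respiratory genes, was at 5.60, 3.14 and 3.74 CPM in WT 1 to 3 and at 1.22, 1.71 and 2.32 CPM in KO 1 to 3, without overlap (log2 fold change -1.25, SE 0.37, edgeR adjusted p = 0.1), and DESeq2 called it lower (adjusted p = 0.0168).

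The sum of the 13 subunits encoded by mitochondrial DNA overlapped between groups. It was 9725, 4770 and 5584 CPM in WT 1 to 3 and 7120, 5123 and 7695 CPM in KO 1 to 3. WT 1 was highest and WT 2 lowest, so the WT range held all KO libraries, and the median log2 fold change was -0.13. Of the 13, mt-Nd3, a complex I subunit, was the one without overlap. Among all genes, 15.4% had every KO library below every WT library and 14.6% had the reverse. The levels of mt-Nd3 were 162.1, 131.6 and 121.1 CPM in WT 1 to 3 and 89.1, 101.3 and 107.6 CPM in KO 1 to 3 (log2 fold change -0.48, SE 0.14, edgeR adjusted p = 0.106). DESeq2 called it lower (adjusted p = 0.0409). In the nuclear-encoded set the sum of all 85 genes ran only from 9643 to 10240 CPM over the 6 libraries.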

How the data were processed

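The deposited values are raw counts per gene symbol, 1 file per library. The submitters' processing notes list Trim Galore 0.6.6 and HISAT2 2.2.1, and a human build, whereas the symbols are those of mouse genes. The labels' protocols name a kit that keeps strand. Which program counted the reads, with what annotation and strand setting, is not given in the sources used here, and no positions were taken from the authors. Positions come from GENCODE M21 on GRCm38, where 94.6% of the symbols were found by name or by RefSeq position.

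The test of KO against WT was edgeR's quasi-likelihood test (version 4.0.16, R 4.3.3; filterByExpr, TMM, robust glmQLFit), Benjamini-Hochberg adjusted over the 15223 genes kept, at 0.05. Each SE is |log2 fold change| over the root of F. CPM uses TMM factors. CPM per kb divides by the median length of a gene's principal GENCODE transcripts, so ranks per kb depend on those lengths. Pseudogenes were matched to genes with blastn 2.17.0 (E-value limit 1e-10). Groups that do not overlap, lists, sums and medians are described without tests. Floors cover counting error only. The edgeR step was tested on simulated counts.

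The genes and lists were chosen with earlier results of these data known. Named genes are those past the threshold, the highest and lowest fold change and level per kb in each complex, isoform sets, chromosome 9 members, up to 4 called genes of each further list, and Ppme1. Ndufa7, Ndufa12, Ndufa13, Ndufb6, Ndufb7, Ndufb11, Ndufv3, Timm8b, Ppargc1b, mt-Nd3, the sex-linked genes, other genes near Cox5a and the 1 Mb window were chosen after seeing the data, as were other genes named outside that rule. Alternatives were DESeq2 1.42.0, limma-voom (limma 3.58.1), other scaling factors, other filters, a replicate block, libraries left out, and pseudogene counts added to their gene.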

Additional observations from a re-analysis of the deposited data

How the results depend on the processing

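The fit of KO against WT without a replicate block is the one reported. DESeq2 called 8 respiratory chain genes higher and 6 lower, and 1195 and 1211 of all genes; upper-quartile factors called 5 higher. Deviations of same-numbered libraries from their group means correlated across genes at -0.512, -0.307 and -0.223. No library correlated best with its own number, so the numbers were not used to pair them. Yet the share of Ndufa12-ps was high in both WT 3 and KO 3, as given above. Whether libraries of the same number share a batch was not tested. With the number as a replicate block, 0 respiratory chain genes were called higher and 0 lower, and 3 and 5 of all genes. Leaving out 1 library at a time, or WT 1 and KO 1 together, gave 1 to 12 respiratory chain genes called higher and 1 to 23 lower, 170 to 3605 of all genes higher and 162 to 3803 lower, and a median log2 fold change of the respiratory chain genes from -0.089 to 0.062 (highest counts and lowest median without WT 1 and KO 1 together). The cause was not tested. Changes near 0 turned sign, none of them called in the reported fit. Without WT 1 and KO 1 together, Ndufa7, Ndufa13 and Sdhc turned sign and were called lower. Cox7a2l, Ndufv3 and Uqcr11 were also called lower there, in a comparison that called 24.6% of all genes lower. When libraries were left out, log2 fold changes ran from -0.142 to 0.085 for Atp5b, -0.104 to 0.001 for Atp5g3, -0.044 to 0.269 for Cox4i1, -0.113 to 0.083 for Cox6a1, -0.683 to 0.028 for Cox7a2l and -0.032 to 0.062 for Cox7b. They ran from -0.37 to 0.082 for Ndufa12, -0.342 to 0.208 for Ndufa13, -0.269 to 0.235 for Ndufa7, -0.219 to 0.153 for Ndufb11, -0.655 to 0.125 for Ndufv3, -0.201 to 0.114 for Sdhc, -0.219 to 0.01 for Uqcr11, -0.02 to 0.064 for Uqcrc2 and -0.031 to 0.272 for Uqcrh. Atp5g3 was at 0.004 with upper-quartile factors. With library sizes alone the median of all genes was 0.076 and that of the respiratory chain genes 0.082. Ndufs5 and Cox5a kept their call in every setting but the block (adjusted p = 0.0879 and 0.141) and, for Ndufs5, added pseudogene reads. At counts of 0 to 42, isoforms such as Cox7a1 are limited by depth.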
